A study of Mus musculus with 24 samples.

Results

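The gene desert around Sox9 on mouse chromosome 11 was examined in CUT&RUN peak lists from injured kidney. Its members were the peaks with a summit from chr11:111000000 to chr11:113500000 (mm10), leaving out the body of Sox9 (chr11:112782210-112787757). This gave 555 of the 576562 peaks in 16 lists, over 2.49 Mb. Another 4 peaks had their summit in the Sox9 body and were left out: 1 each in Sox9 libraries 10 days 3, 48 h 2 and 48 h 4, and 1 in H3K4me3 library 48 h 4.

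The cells came from male mice of genotype Sox9IRES-CreERT2/+:R26RtdT/+, aged 9 to 12 weeks, after bilateral renal ischaemia reperfusion injury (IRI). Tamoxifen was given at injury in all groups, so that cells with an active Sox9 allele at that time, and their descendants, carry tdTomato. The Cre sits at 1 of the 2 Sox9 alleles, so the locus described here carries the insertion in every library, and no uninjured group was part of the comparison. Tomato-positive cells were sorted from cortex and outer medulla at 48 h or 10 days, fixed in 0.2% PFA, and each pellet was split into 3 aliquots for the Sox9 antibody, the H3K4me3 antibody and an input. Each antibody and time had 4 libraries from pellets labelled as biological replicates. Titles gave the time of each sample, since another label names day 10 for the samples titled 48h too.

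Sox9 is a transcription factor that tubule cells switch on after injury. It is flanked by a long stretch with few protein-coding genes, which in other tissues is known to hold distant enhancers of Sox9, such as those used in testis and cartilage. H3K4me3 marks active promoters and served as the positive-control antibody. CUT&RUN releases DNA near an antibody's target by a tethered nuclease, and peaks were called by the authors per library against the input of its pellet.

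Promoters are where the H3K4me3 mark is best known, so the 3 promoters below show what a desert peak looked like at a gene start. RefSeq (GRCm38.p6, the assembly of mm10) gave 21 promoter windows for 19 of the 24 annotated genes in the window, each with the 250 bases before the gene's start used here. Of these, 5 of 21 were touched by a desert peak of any library, where 32.8% of all 32851 such windows were touched by a peak. By antibody, H3K4me3 peaks touched 4 of the 21 (25.9% over all windows) and Sox9 peaks 1 (13.4%), so the desert's counts are not above the background. Bases covered by a peak are in capitals, each sequence 5′ to 3′ on the gene's strand. Kcnj2 encodes an inwardly rectifying potassium channel, and its window (chr11:111065914-111066163, plus strand, 65.6% GC) had 201 bases covered by H3K4me3 peaks of libraries 10 days 1 and 10 days 4. 2610035D17Rik is a long noncoding RNA gene downstream of Sox9, and its window (chr11:113201839-113202088, minus strand) had 33 bases covered by an H3K4me3 peak of library 10 days 3. 4732490B19Rik is a neighbouring long noncoding RNA gene, and its window (chr11:113209670-113209919, minus strand) had 21 bases covered by a Sox9 peak of library 10 days 4.
Kcnj2: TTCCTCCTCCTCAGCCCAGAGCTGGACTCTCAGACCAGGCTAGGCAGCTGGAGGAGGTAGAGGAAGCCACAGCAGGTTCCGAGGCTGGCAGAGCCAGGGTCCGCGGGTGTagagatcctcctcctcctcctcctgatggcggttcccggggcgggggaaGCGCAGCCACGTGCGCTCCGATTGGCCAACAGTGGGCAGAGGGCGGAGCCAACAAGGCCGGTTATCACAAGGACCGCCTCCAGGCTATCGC
2610035D17Rik: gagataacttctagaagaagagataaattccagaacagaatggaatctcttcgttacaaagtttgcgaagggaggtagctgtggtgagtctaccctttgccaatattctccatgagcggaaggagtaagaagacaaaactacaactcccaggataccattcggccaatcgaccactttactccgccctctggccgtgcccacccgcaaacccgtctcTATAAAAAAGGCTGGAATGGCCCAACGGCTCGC
4732490B19Rik: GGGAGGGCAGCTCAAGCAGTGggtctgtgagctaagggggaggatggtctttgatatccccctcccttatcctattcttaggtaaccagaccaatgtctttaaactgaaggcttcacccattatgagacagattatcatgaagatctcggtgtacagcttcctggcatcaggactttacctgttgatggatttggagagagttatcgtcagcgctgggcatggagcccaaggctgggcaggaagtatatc
The remaining covered windows belonged to the noncoding genes Gm39467 and Gm51928, each with an H3K4me3 peak in 1 library. The 2 H3K4me3 peaks at Kcnj2 lay side by side without overlapping. No promoter was covered in more than 2 of the 8 H3K4me3 libraries or more than 1 of the 8 Sox9 libraries. ACAAT, the core of Sox motifs, was absent on both strands from the 5 covered windows, and 27.7% of 32851 RefSeq promoter windows of that length hold it.

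The lists differed in length, from 7706 to 85415 peaks for Sox9 and from 25811 to 88496 for H3K4me3. The longest list of each antibody came from the pellet 10 days 1, and the 14 libraries of other pellets held 370 of the 555 desert peaks. Read depth was not given, so densities were compared within a list, against the rest of chromosome 11 unless another background is named. Peak heights in each list fell on whole multiples of a list-specific pileup, called a step here. Of the 555 desert peaks, 542 were 1 step high, the lowest height a list holds. Most peaks were so everywhere, with 92.5% to 97.9% of a whole list 1 step high, depending on the library.

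Peaks were scattered through the desert, and in 7 of 8 Sox9 libraries and 8 of 8 H3K4me3 libraries they were sparser than along the rest of chromosome 11, with a difference that passed the test for H3K4me3 and not for Sox9. The Sox9 libraries at 10 days held 91, 11, 20 and 54 desert peaks in replicates 1 to 4, and those at 48 h held 7, 18, 10 and 18. As a density per Mb over that of the rest of the chromosome, these were 0.985, 0.591, 0.927 and 1.11 at 10 days, and 0.727, 0.544, 0.480 and 0.888 at 48 h. Library 10 days 4 was the single Sox9 library above 1, and the times overlapped. The mean log2 ratio, with 0.5 added to each count, was -0.37 ± 0.42 (SD, n = 8), a ratio of 0.774 that did not pass the two-sided exact sign-flip permutation test (p = 0.0547, adjusted p = 0.120 over 11 tests). Without the added count the log2 ratio was -0.41 and passed before adjustment (exact permutation p = 0.0391), and it did so too when the chromosome was measured from its first to its last peak (-0.41, exact permutation p = 0.0313).

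H3K4me3 gave a similar level with less spread. Its libraries held 94, 27, 69 and 33 desert peaks at 10 days and 28, 26, 25 and 24 at 48 h. Relative to the rest of chromosome 11 the densities were 0.876, 0.739, 0.757 and 0.861 at 10 days, and 0.774, 0.664, 0.552 and 0.708 at 48 h. All 8 libraries were below 1. The mean log2 ratio was -0.42 ± 0.21 (SD, n = 8), a ratio of 0.746, which passed the exact sign-flip permutation test (p = 0.0078, the smallest 8 libraries allow, and adjusted p = 0.0286). The Sox9 and H3K4me3 ratios differed by 0.054 on the log2 scale, which was within their spread (exact permutation p = 0.745, adjusted p = 0.745).

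**Figure D1:**
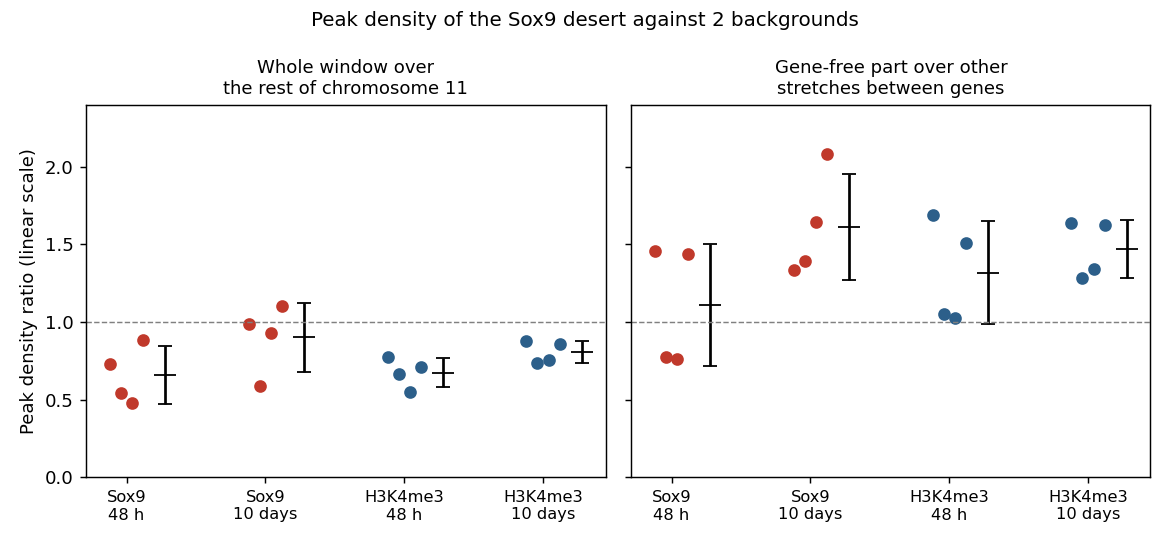
Peak density of the Sox9 desert as a ratio (linear axis) for each library, with nothing added to the counts. The left panel is over the rest of chromosome 11. The right panel sets its part outside protein-coding genes over stretches of 500 kb or more between such genes elsewhere. Points are the 4 libraries of each antibody and time, bars the mean and SD. On the left, 7 of 8 Sox9 and all 8 H3K4me3 libraries lie below 1, and on the right 6 of 8 Sox9 and all 8 H3K4me3 libraries lie above it.

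The choice of background turned this comparison. The part of the window outside protein-coding genes (2.20 Mb) was set against 653 other stretches between protein-coding genes. These were 500 kb or more long, on all chromosomes but Y, 770 Mb in all. Against these, the log2 ratio was 0.43 for Sox9 (exact permutation p = 0.0469, above 1 in 6 of 8 libraries) and 0.48 for H3K4me3 (exact permutation p = 0.0078, above 1 in 8 of 8), both unadjusted. Against all other chromosomes but Y as a whole, the desert held peaks at an ordinary density. The log2 ratios were 0.037 for Sox9 (exact permutation p = 0.789) and -0.031 for H3K4me3 (exact permutation p = 0.695). The desert was thus sparse beside the rest of chromosome 11. Its part outside protein-coding genes, which holds the noncoding genes, was dense beside those 653 stretches. That part includes the 457 kb from Sox9 to Slc39a11, which is too short for the 500 kb cut, so the comparison is not of like with like. The stretches also include those of X, which male cells hold as a single copy. The 2 long gaps of the desert, which pass the cut, were nearer the middle of the stretches when taken alone. The gap from Kcnj2 to Gm11677 (645 kb) stood at percentile 67.6 for Sox9 and 64.9 for H3K4me3 among 655 stretches, and the gap from Gm11677 to Sox9 (1056 kb) at 70.5 and 56.0.

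Chromosome 11 was also divided into 47 tiles of 2.5 Mb, the tile of the desert holding 5 protein-coding genes. Its density ranked 15 from the lowest for both antibodies, at 0.788 of the rest for Sox9 and 0.748 for H3K4me3. The 5 tiles with fewer protein-coding genes, 1 to 4 each, were all sparser, from 0.391 to 0.522 for Sox9 and from 0.377 to 0.596 for H3K4me3. These are descriptions over tiles of the same libraries, with no test.

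**Figure D2:**
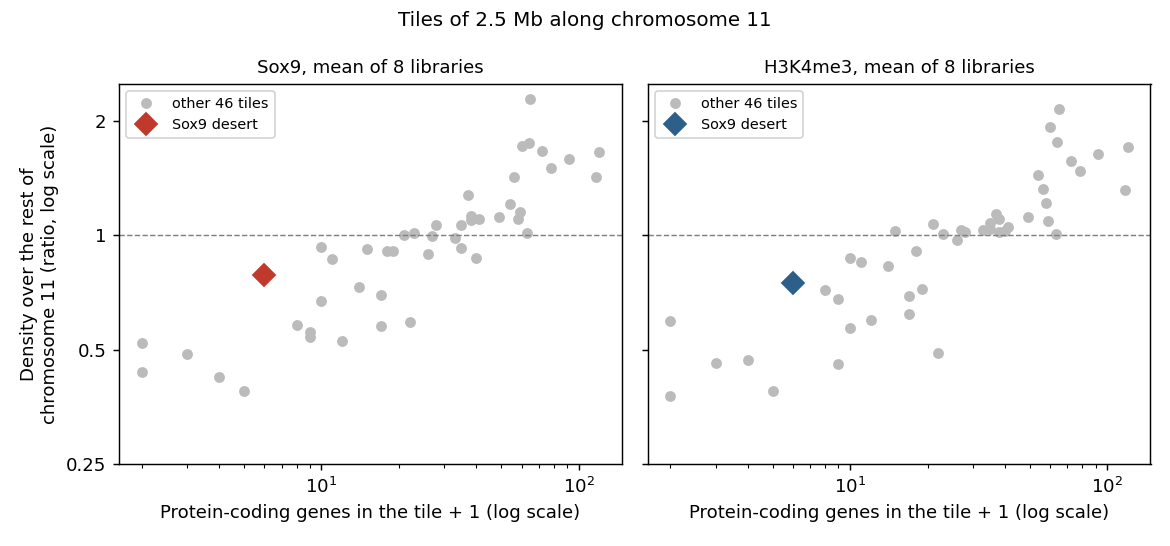
Tiles of 2.5 Mb along chromosome 11, with the number of protein-coding genes plus 1 (horizontal, log scale) and the density over the rest of the chromosome as a mean of 8 libraries (vertical, log scale), Sox9 left and H3K4me3 right. The diamond is the Sox9 desert, at 0.788 and 0.748, and the 5 tiles to its left with fewer genes all lie lower.

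Peaks were spread unevenly over the 2 sides of Sox9. Upstream, towards Kcnj2, peaks were sparser than on the rest of the chromosome, and downstream, towards Slc39a11, their mean density was above it. For Sox9 the upstream density was 0.592 ± 0.204 and the downstream density 1.25 ± 0.558 of the rest (SD, n = 8), downstream being higher in 7 of 8 libraries. The exception was 10 days 2, with 10 peaks upstream and 1 downstream. For H3K4me3 the values were 0.551 ± 0.0759 and 1.22 ± 0.260 (SD, n = 8), and downstream was higher in 8 of 8. The split at Sox9 was made after these values were seen, so the contrast between sides carries no test.

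Both upstream gaps had mean ratios below 1, and both downstream stretches had means above it. Between Kcnj2 and Gm11677 the ratio was 0.576 for Sox9 and 0.577 for H3K4me3, and between Gm11677 and Sox9 it was 0.601 and 0.535. Between Sox9 and Slc39a11 it was 1.14 for Sox9 and 1.28 for H3K4me3. In the part of Slc39a11 inside the window it was 1.46 and 1.10. Slc39a11 encodes a zinc transporter and is the one long protein-coding gene that reaches into the window.

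**Figure D3:**
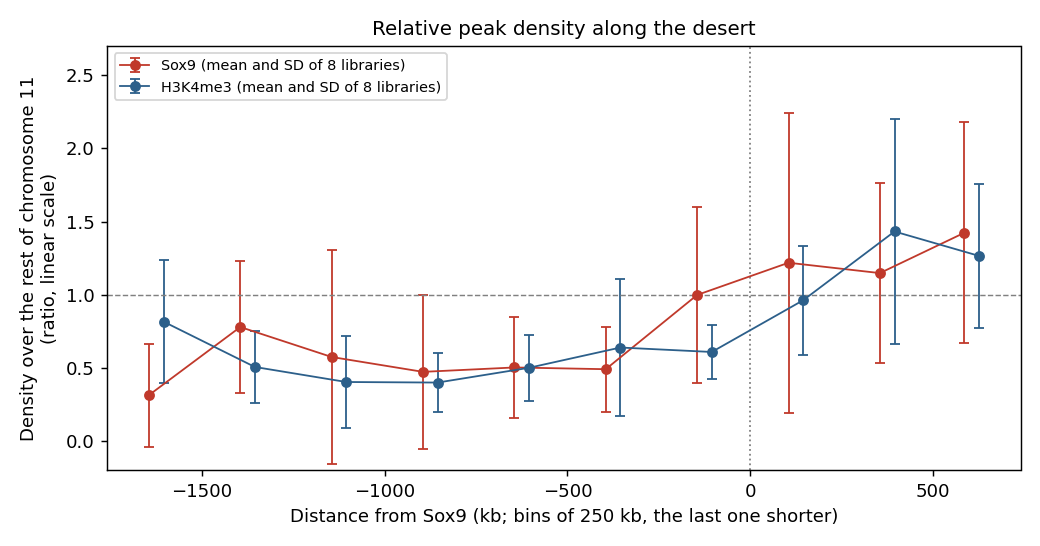
Peak density along the desert in bins of 250 kb by distance from Sox9 (horizontal, kb, negative towards Kcnj2), as a ratio to the rest of chromosome 11 (vertical, linear). Points and bars are the mean and SD of 8 libraries, and the bin of 32.2 kb at the far left end is not drawn. Both antibodies stay below 1 beyond 250 kb upstream of Sox9, and both are above 1 from 250 kb downstream on.

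The noncoding gene 2610035D17Rik (chr11:113043906-113201838, 158 kb) is the longest noncoding gene of the window, lies downstream of Sox9 and overlaps the shorter LOC115487747. It was chosen after its values were seen. It held 26 Sox9 peaks and 55 H3K4me3 peaks, with at least 1 peak in each of the 16 libraries. Its density was 1.25 ± 0.650 of the rest of the chromosome for Sox9 and 1.97 ± 1.08 for H3K4me3 (SD, n = 8). The H3K4me3 libraries ranged from 0.403 to 3.26, and 6 of 8 were above 1. Of the 13 taller peaks described below, 6 lay in this gene, beside these 26 and 55 of all 555 desert peaks. The share of genes of such length with a peak in every library was not counted.

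Distance to Sox9 was compared as the density within 250 kb of the gene against the rest of the desert. The near stretch takes 250 kb from each side, while the desert spans 1.78 Mb upstream and 0.712 Mb downstream. The rest of the desert is thus mostly upstream, the sparser side, so distance and side cannot be told apart in this comparison. For Sox9 libraries the densities near the gene were 40, 4, 12 and 42 peaks per Mb at 10 days and 6, 6, 4 and 10 at 48 h. Farther away they were 35.6, 4.51, 7.02 and 16.5 at 10 days, and 2.01, 7.52, 4.01 and 6.52 at 48 h. The near density was higher in 5 of 8 libraries. The mean log2 ratio was 0.61 ± 0.64 (SD, n = 8; exact sign-flip permutation p = 0.0234, adjusted p = 0.0645), which did not pass after adjustment. The 0.5 added to each count lifts the shorter stretch more, and without it the log2 ratio was 0.50 (exact permutation p = 0.109). For H3K4me3 the log2 ratio was 0.14 ± 0.38 (SD, n = 8; exact permutation p = 0.336, adjusted p = 0.411), the near density being higher in 4 of 8 libraries.

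The summit nearest to Sox9 on each side came from a different library each time at 10 days. Upstream, the nearest Sox9 summit lay at -2749 bp from the gene in library 10 days 4 and the nearest H3K4me3 summit at -2733 bp in library 10 days 1. These 2 peaks overlapped, at chr11:112779386-112779553, and were 1 step high each. Downstream, Sox9 library 10 days 3 had a summit 852 bp past the gene, and the nearest H3K4me3 summit was 15.3 kb past it, in library 10 days 2. At 48 h the nearest Sox9 summits were at -59.1 kb upstream and 25.8 kb downstream, and the nearest H3K4me3 summits at -76.1 kb and 58.7 kb. The longest stretch with no summit in any of the 16 lists was 37.6 kb, on the upstream side, against a median spacing of 2.89 kb between neighbouring summits (n = 554).

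**Figure D4:**
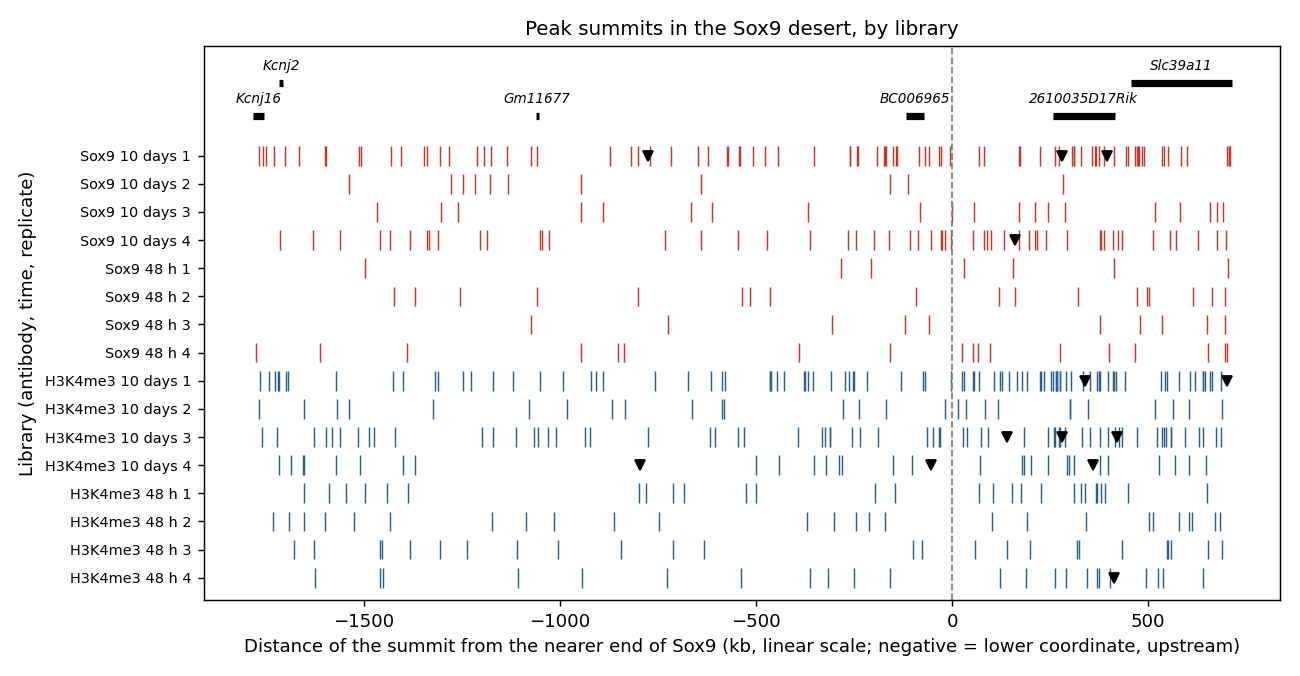
Every peak summit in the desert by distance from the nearer end of Sox9 (horizontal, kb, linear) in each of the 16 libraries (rows; red Sox9, blue H3K4me3). Ticks are peaks of 1 step, black triangles the 13 peaks of 2 or 3 steps, and black bars at the top genes of the window. Few ticks line up between rows, and 10 of the 13 triangles lie downstream of Sox9.

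Positions rarely recurred between libraries. Peaks of all 16 lists were joined where they overlapped by 1 bp, giving 534 regions, and 514 of these held a peak of a single library. Regions with a peak in 2 or more libraries numbered 20 (3.75%), where over all chromosomes 7.27% of 520412 regions did so. On the rest of chromosome 11 the share was 9.05%. Without the pellet 10 days 1, chosen after seeing the data, 9 recurrent regions were left (2.49% against 7.66%). No desert region had a peak in 4 or more libraries, where 0.64% of all regions did. On the rest of chromosome 11, a region reached all 16. Recurrence in the stretches between protein-coding genes elsewhere was not counted.

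Within an antibody, 2 of 227 Sox9 regions (0.881%) and 4 of 322 H3K4me3 regions (1.24%) had a peak in 2 or more of 8 libraries. The shares over all chromosomes were 3.27% for Sox9 and 5.24% for H3K4me3. Of the 20 recurrent regions, 15 joined peaks of both antibodies, but 3 of the 20 joined libraries of the same pellet. The share joining both antibodies was not counted outside the desert, so the 15 are not read as sites shared by Sox9 and H3K4me3. Downstream of Sox9 lay 14 of them and upstream 6. In 2610035D17Rik, which held 26 Sox9 and 55 H3K4me3 peaks of the 555, lay 6.

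The most recurrent region was chr11:113201415-113201625, in 2610035D17Rik near its start and 414 kb downstream of Sox9. It held peaks of H3K4me3 libraries 10 days 1 and 48 h 4 and of Sox9 library 48 h 1. The H3K4me3 peak of 48 h 4 was 2 steps high there. The H3K4me3 peak of library 10 days 3 that covers the end of the promoter window printed above did not overlap these.

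Both regions shared by Sox9 libraries alone were downstream. The first, chr11:112947760-112947971, lay in no annotated gene 160 kb past Sox9, with a peak of 3 steps in library 10 days 4 and a peak of 1 step in 48 h 2. The second, chr11:113489519-113489760 in Slc39a11, held peaks of 1 step in libraries 48 h 1 and 48 h 4. Close before it, also in Slc39a11, chr11:113487843-113488123 joined the H3K4me3 and Sox9 peaks of the pellet 10 days 1, the H3K4me3 peak being 3 steps high. In 2610035D17Rik, chr11:113067051-113067246 joined a Sox9 peak of 10 days 1 and an H3K4me3 peak of 10 days 3, both 2 steps high. This was the single place in the desert with a taller peak of each antibody.

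The other 5 named regions were upstream of Sox9, in no annotated gene, each with 1 peak of each antibody and 1 step high. Their side follows from the rule, since ties went to the lower coordinate and the tied regions left out all lay downstream. The closest to Sox9 was the one with the 2 nearest upstream summits, described above. The next lay at chr11:112712811-112713100, at -69.3 kb from Sox9 and 1.46 kb before the start of the noncoding gene BC006965 on the minus strand, and joined both libraries of the pellet 10 days 1. The remaining 3 were chr11:112631521-112631726, chr11:111475523-111475658 and chr11:111324347-111324628, with peaks of libraries of different pellets.

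Tall peaks were scarce in the desert. Of its 555 peaks, 13 (2.34%) were 2 or 3 steps high, while the tallest peak on chromosome 11 reached 24 to 222 steps depending on the library. Sox9 lists held 4 of the 13 and H3K4me3 lists 9. Libraries at 10 days held 12 and libraries at 48 h held 1, but the lists at 48 h also held fewer desert peaks. At 10 days there were 176 for Sox9 and 223 for H3K4me3, and at 48 h 53 and 103. None of these 53 Sox9 peaks at 48 h exceeded 1 step. The mean share of taller peaks on the rest of chromosome 11 was 3.47% in the same 4 libraries. A time difference in taller peaks was not tested. Nor were heights compared with the stretches between protein-coding genes elsewhere.

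For Sox9 the share of peaks of 2 or more steps was 3.30% in library 10 days 1 and 1.85% in 10 days 4, and 0 in the other 6. On the rest of chromosome 11 it ran from 1.95% to 5.36%. The desert was lower in 8 of 8 libraries, with a mean difference of -3.22 ± 0.99 percentage points (SD, n = 8; exact sign-flip permutation p = 0.0078, adjusted p = 0.0286). A share of 0 rested on 7 to 20 peaks in these 6 libraries, each of which would have held under 1 taller peak at the share of its rest. A lower share was thus the likeliest outcome there by count alone, and this p overstates the evidence. In all, 4 taller Sox9 peaks were found where the shares of the rest would give 10.5. For H3K4me3 the shares at 10 days were 2.13%, 0, 4.35% and 9.09%, against 10.3%, 4.23%, 6.50% and 3.98% on the rest of the chromosome. At 48 h they were 0 in 3 libraries and 4.17% in 48 h 4, which is 1 peak of 24. The mean difference of -2.70 ± 4.03 points (SD, n = 8) did not pass (exact permutation p = 0.117, adjusted p = 0.184), with 9 taller peaks found where the shares of the rest would give 20.8.

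**Figure D5:**
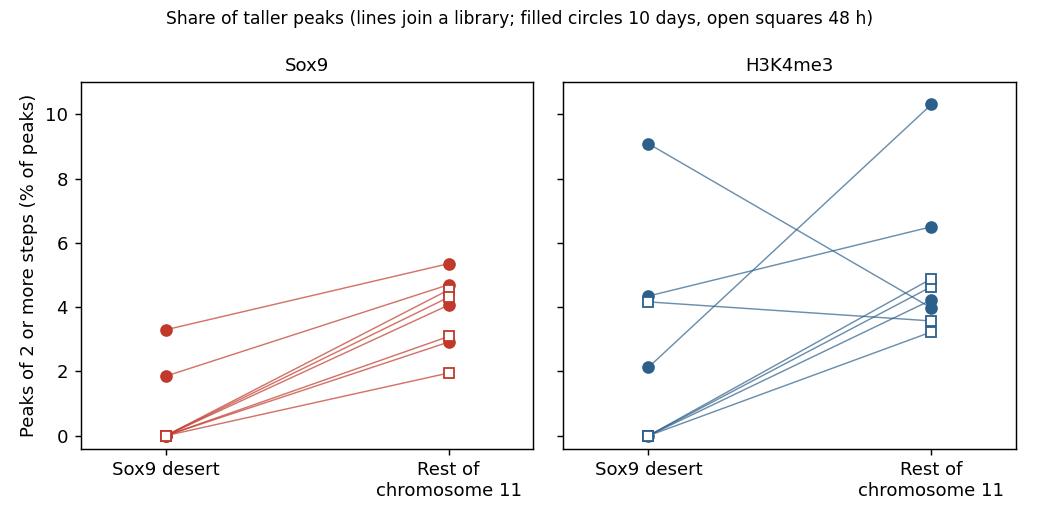
Share of peaks of 2 or more steps (vertical, percent of peaks) in the Sox9 desert and on the rest of chromosome 11, with a line for each library, Sox9 left and H3K4me3 right. All 8 Sox9 lines rise from the desert to the rest, and 6 of 8 H3K4me3 lines do.

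The tallest Sox9 peak, 3 steps, was the one 160 kb past Sox9 in library 10 days 4, with an authors' fold enrichment of 155. The tallest H3K4me3 peak at 10 days, also 3 steps, was in Slc39a11 in library 10 days 1, with an authors' fold of 48.0. The tallest at 48 h was the 2-step H3K4me3 peak at 2610035D17Rik. All these heights are far under the tallest peaks of the same lists.

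Few Sox9 peaks of the desert coincided with an H3K4me3 peak of the same pellet. The overlap, of at least 1 bp, was 2 of 91 peaks in pellet 10 days 1 and 1 of 20 in 10 days 3. The other 6 pellets had none. On the rest of chromosome 11, the only background used for overlap, from 2.44% to 6.87% of Sox9 peaks were overlapped. The stretches between protein-coding genes elsewhere were not compared. At the shares of the rest, 8.17 overlaps would have been found in all, against the 3 observed. The mean difference of shares was -3.15 ± 1.36 points (SD, n = 8 pellets; exact sign-flip permutation p = 0.0078, adjusted p = 0.0286). In 5 of the 8 pellets under 1 overlap was to be found at the share of the rest, so a share of 0 was the likeliest outcome there and this p overstates the evidence.

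The relative density of the whole desert was higher on average at 10 days than at 48 h for both antibodies, and neither difference passed its test. For Sox9 the mean ratio over the rest of the chromosome was 0.902 ± 0.220 at 10 days and 0.660 ± 0.185 at 48 h (SD, n = 4 each), a log2 difference of 0.42 (exact permutation of 4 against 4 libraries, p = 0.171, adjusted p = 0.236). For H3K4me3 it was 0.808 ± 0.0702 at 10 days and 0.675 ± 0.0933 at 48 h, a log2 difference of 0.26 (exact permutation p = 0.0857, adjusted p = 0.157). The antibodies' time differences were themselves 0.17 apart (exact permutation p = 0.429, adjusted p = 0.471). The smallest p this design allows is 0.0286. The 10-day lists were also longer on average, 39320 against 16760 peaks for Sox9 and 56545 against 31455 for H3K4me3, and the part of list length in these differences was not tested.

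On the upstream side alone, the Sox9 libraries of the 2 times did not overlap. Their upstream densities were 0.833, 0.752, 0.584 and 0.860 of the rest of the chromosome at 10 days and 0.436, 0.380, 0.336 and 0.552 at 48 h. The log2 difference was 0.75, a ratio of 1.69 (exact permutation p = 0.0286, adjusted p = 0.114 over the 4 comparisons by side and antibody), and this side was singled out after its values were seen. Downstream, the Sox9 densities were 1.36, 0.188, 1.79 and 1.72 at 10 days and 1.46, 0.952, 0.840 and 1.73 at 48 h, which overlapped (log2 difference -0.28, exact permutation p = 0.857). For H3K4me3 the log2 difference was 0.25 upstream (exact permutation p = 0.0857) and 0.25 downstream (exact permutation p = 0.257). The upstream time difference of Sox9 was not shown to differ from that of H3K4me3 (exact permutation p = 0.0571).

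No single position separated the times. Time-specific regions were defined as those found in every library (4 of 4) of one time and in none (0 of 4) of the other. In the desert, 0 of 227 Sox9 and 0 of 322 H3K4me3 regions met this. Over all chromosomes 0.00186% of Sox9 regions were specific to 10 days and 0% to 48 h, and for H3K4me3 the shares were 0.00547% and 0.00213%, so a count of 0 is near the background. In the desert the most libraries of one time at a region free of the other was 2, for Sox9 at 48 h.

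Among the protein-coding genes in or next to the window, peaks in the gene body were most frequent in the longest. Slc39a11 had peaks of all 8 Sox9 libraries (60 peaks) and all 8 H3K4me3 libraries (94 peaks) over its whole 405 kb. Map2k6, a stress-kinase activator beyond the upstream end, had Sox9 peaks in 8 of 8 and H3K4me3 peaks in 6 of 8 libraries. Kcnj16, a potassium channel subunit of the tubule, had them in 2 of 8 and 5 of 8. Of these 5 H3K4me3 libraries 4 were at 10 days, where the lists were also longer on average. Kcnj2 had Sox9 peaks in 1 of 8 and H3K4me3 peaks in 0 of 8 libraries, and Gm11677 in 2 of 8 and 0 of 8. Beyond the downstream end, Sstr2, a somatostatin receptor, had them in 0 of 8 and 1 of 8, and Cog1, a subunit of a Golgi complex, in 5 of 8 and 3 of 8. Sox9 itself had a peak in its body in 3 of 8 Sox9 libraries and 1 of 8 H3K4me3 libraries. The share over all protein-coding genes was not counted, so none of these counts is read as high or low.

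The window's other genes were 18 long noncoding RNA genes and 1 pseudogene, and 340 of the 555 peaks (61.3%) lay in no annotated gene. Of the 18, 9 had a Sox9 peak, 12 an H3K4me3 peak and 5 neither. Over 12727 noncoding genes of all chromosomes the shares were 58.7% with a Sox9 peak, 69.3% with an H3K4me3 peak and 79.5% with a peak of either, so these counts are near the background. Gene length bears on such counts, and the median was 6.42 kb in the window and 8.43 kb over all. BC006965 has its nearer end at -70.9 kb from Sox9. It carried Sox9 peaks in all 4 of the 10-day libraries (5 peaks) and in 1 of the 4 at 48 h (1 peak). Its H3K4me3 peaks were in 2 and 1 libraries. The 10-day lists were also longer on average, and the share of genes with such a split between times was not counted. Gm46301, 73.1 kb past Sox9, had Sox9 peaks in 3 of 8 and H3K4me3 peaks in 5 of 8 libraries. These 2 genes, on either side of Sox9, were picked out after their values were seen.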

How the data were processed

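Sorted Sox9-lineage kidney cells were profiled by CUT&RUN in 24 samples, and peak lists of the 16 antibody libraries were used, while the 8 inputs were left out. The tools given in the submitters' processing notes are MACS3, Bowtie, Bowtie2 and Partek 10, on mm10. Read filters, duplicates, scaling, depth and the peak threshold are not given in the sources used here, so precision rests on the replicates. Each list was called for 1 library against its own pellet's input, as its peak names show. Fold enrichment, a ratio computed by the authors, sets the summit's pileup against its local background. Significance (p-value and q-value) was deposited by the authors on a −log10 scale. The score column as deposited by the authors was not used.

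The members, lists and tests were chosen with earlier results of these data known. Pileups were solved from the fold and the p-value within a list, taking the p as a Poisson tail with 1 added to pileup and background. In every list at least 99.6% of peaks lay no more than 0.05 from a whole number of steps, a step being 59.8 to 507 depending on the list. Densities had 0.5 added to each count and were set against the rest of chromosome 11 unless another background is named. The chromosome was measured from position 1 to the last peak end (121982534), since no chromosome length was used, and the first peak is at 3100030. Libraries were compared by two-sided exact sign-flip (n = 8) or exact permutation (4 against 4) tests, with Benjamini-Hochberg adjustment over 11 tests. The solving of steps and the sign-flip test of density were tried on simulated data, and the permutation test only on a fixed example. Genes came from a RefSeq table for GRCm38.p6 with 24 genes in the window; the sequences of 19 matched. Regions named were the 10 shared by the most libraries (ties by Sox9 libraries, steps, then coordinate), the tallest peak of each antibody and time, the summits nearest to Sox9, and protein-coding genes in or next to the window; others are marked as chosen after their values were seen. The Sox9 promoter and sequence under summits were not used here. Same-numbered pellets were paired from the labels: Sox9 and H3K4me3 aliquots of a pellet correlated from -0.16 to 0.16 in their deviations over 47 tiles. Times share only a number. Alternatives changed the added count, the background, the length, the peak filter, the distance, the overlap (50%) and the libraries. The work was done in Python 3.11.15 (with SciPy 1.17.1, pandas 2.3.3 and NumPy 2.4.6), with plots by Matplotlib 3.10.9.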

Additional observations from a re-analysis of the deposited data

Results flagged for a closer look

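In H3K4me3 library 48 h 4, 4.17% of the desert peaks were 2 or more steps high, which is 1 of 24 peaks, where the other 3 libraries at 48 h had 0. The gap to the other libraries was the whole range of this group of 4, above Dixon's critical value. With the other 3 libraries tied at 0, a single taller peak in 1 library is enough to give this, so it says nothing about the library, and the usual rate of 1 in 20 groups set apart by chance does not apply. The peak is the one at chr11:113201420-113201625 in 2610035D17Rik.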

How the results depend on the processing

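Without the added count, the Sox9 density ratio was -0.41 (log2; exact permutation p = 0.0391) and the ratio near Sox9 was 0.50 (exact permutation p = 0.109). With first to last peak as the length, Sox9 density was -0.41 (exact permutation p = 0.0313). With all other chromosomes but Y as background, density was 0.037 for Sox9 and -0.031 for H3K4me3. With stretches between genes as background, it was 0.43 and 0.48, and the antibodies' difference -0.050. On the upstream side alone, Sox9 density was -0.75 (exact permutation p = 0.0078) and its time difference 0.75. On the downstream side alone, density was 0.23 for Sox9 and 0.30 for H3K4me3 (exact permutation p = 0.0469 for the latter), the Sox9 time difference -0.28, the difference between the antibodies' time differences -0.52 and the antibodies' difference -0.074. The sides were chosen after seeing the data. Within 100 kb of Sox9, the near ratio was 0.72 for Sox9 (exact permutation p = 0.0625) and -0.29 for H3K4me3, and within 500 kb it was 0.48 for Sox9 (exact permutation p = 0.148). The causes of these shifts were not tested. Without the pellet 10 days 1, an alternative chosen after seeing the data, 370 desert peaks, 9 recurrent regions (2.49%) and 8 peaks of 2 or more steps were left.

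With each library left out in turn, the log2 ratios ran from -0.44 to -0.28 for Sox9 density (-0.44, exact permutation p = 0.0156, without 10 days 4), -0.46 to -0.37 for H3K4me3 density, 0.29 to 0.60 and 0.16 to 0.33 for the time differences (H3K4me3 0.33, exact permutation p = 0.0286, without 48 h 1), 0.09 to 0.31 for their difference, -0.021 to 0.14 for the antibodies' difference (-0.021 without Sox9 10 days 4 and -0.0036 without H3K4me3 48 h 3), 0.46 to 0.72 for Sox9 near the gene and 0.078 to 0.24 for H3K4me3 (0.24, exact permutation p = 0.0469, without 48 h 4). Shares of taller peaks differed by -3.40 to -3.03 points for Sox9 and -3.82 to -1.92 for H3K4me3 (-3.82, exact permutation p = 0.0313, without 10 days 4), and overlap by -3.43 to -2.80. With the replicate block, the antibodies' difference paired by pellet was 0.054 (exact permutation p = 0.555), and the time differences blocked by number were 0.42 for Sox9 and 0.26 for H3K4me3 (exact permutation p = 0.125 each, the smallest 4 pairs allow); no call changed. Across times, same-numbered libraries correlated from -0.21 to 0.14 for Sox9 and -0.18 to 0.32 for H3K4me3. Aliquots of the same pellet, which are paired, correlated only from -0.16 to 0.16. This measure thus cannot show whether the numbers pair libraries across times.

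Densities, distance and overlap limited to peaks of 2 or more steps were not run, because 10 of 16 libraries had no such peak in the desert. The desert counts per library, 7 to 94 peaks, limit what a difference between 4 libraries can show.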
